A study of Mus musculus with 7 samples.

Results

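The interleukin-1 (IL-1) family was followed here as 8 genes, Il1a, Il1b, Il1rn, Il18, Il33, Il1r1, Il1r2 and Il1rl1, out of 33696 genes in the feature lists. The genes were found by symbol, and all 8 were present in each of the 7 libraries. Each library held the cells of 1 mouse tumor read with a 3′ droplet assay from 10x Genomics. The tumors grew from JW23.3, a single mouse malignant peripheral nerve sheath tumor (MPNST) line with mutant Nf1 and Trp53, so the tumor side of the model rests on 1 line. For each allograft, cells of the line were placed under the flank skin of female wildtype C57/B6 mice aged 5 to 6 weeks, and mice were randomized on day 7. The irradiated group held 4 tumors given 5 daily fractions of 2 Gy, with lead shielding over the regions outside the tumor. The control group held 3 tumors with no irradiation. All tumors were harvested on day 21, dissociated with papain and treated to lyse red cells, and 10000 cells were loaded per library. Since the hosts were female and the tumor line male, Xist RNA marked host cells. The labels number the tumors of each group as biological replicates, and the tumor was the unit of every test.

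IL-1α and IL-1β, the products of Il1a and Il1b, are inflammatory ligands of the receptor encoded by Il1r1, which signals through MyD88 to NF-κB. IL-1β and IL-18 are made as precursors that caspase-1 cuts in inflammasomes, so transcript counts do not give the amount of active cytokine. IL-33 is a nuclear alarmin released from damaged cells, and its receptor ST2 is encoded by Il1rl1. The receptor antagonist (Il1rn) and the decoy receptor (Il1r2) restrain the pathway. In tumors, IL-1β is best known as a product of macrophages and other myeloid cells, IL-33 as a product of stromal and epithelial cells, and ST2 as a receptor of regulatory T cells, type 2 innate lymphoid cells and mast cells.

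The promoters shown are those of the ligand counted mostly in myeloid cells (Il1b) and of the receptor counted mostly in tumor cells (Il1rl1). They are the 250 bases before each transcript start, from RefSeq on build GRCm38.p6, read 5′ to 3′ on the strand of the gene, with matches to the searched motifs in capitals.
Il1b (chr2:129371140-129371389, minus strand): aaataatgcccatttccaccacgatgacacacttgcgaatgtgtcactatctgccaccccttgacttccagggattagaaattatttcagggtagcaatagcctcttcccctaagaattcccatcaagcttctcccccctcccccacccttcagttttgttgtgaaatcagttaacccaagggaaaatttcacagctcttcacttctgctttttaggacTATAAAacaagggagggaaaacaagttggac
Il1rl1 start 1 (chr1:40429320-40429569, plus strand): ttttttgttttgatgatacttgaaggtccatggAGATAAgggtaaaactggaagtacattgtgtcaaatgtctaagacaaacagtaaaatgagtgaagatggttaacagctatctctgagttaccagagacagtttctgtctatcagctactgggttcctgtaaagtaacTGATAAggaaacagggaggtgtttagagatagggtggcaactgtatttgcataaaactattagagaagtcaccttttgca
Il1rl1 start 2 (chr1:40439379-40439628, plus strand): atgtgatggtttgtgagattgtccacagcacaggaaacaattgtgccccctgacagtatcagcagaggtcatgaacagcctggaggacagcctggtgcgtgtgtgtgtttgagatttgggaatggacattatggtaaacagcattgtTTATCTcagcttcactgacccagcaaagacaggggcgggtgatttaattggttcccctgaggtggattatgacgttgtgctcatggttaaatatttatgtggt
The motifs were searched on both strands, and the matches shown do not overlap. The Il1b sequence held the core promoter motif TATAAA from base -31 to base -26 before the start, a match found in 12.4% of the 32851 promoters of the same length. The GATA letters AGATAA or TGATAA were found in 16.6% of promoters. Start 1 of Il1rl1 held AGATAA from base -217 and TGATAA from base -80, and start 2 held TTATCT, the minus-strand form, from base -103. No match to TGANTCA (AP-1, 6.75% of promoters) or GAGGAA (PU.1, 23.3%) lay in these windows, which says only that those letters were absent. UMIs were counted per gene, so the levels below did not tell the starts of Il1rl1 apart.

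Of 39537 cells deposited, with 646559899 unique molecular identifiers in all (UMIs, each counted as 1 RNA molecule), 34296 were retained. The median cell held 6058.5 UMIs in control 2 and 17930.5 in control 1. Cells were assigned by the markers they carried, with no IL-1 family gene among the markers, to 14813 MPNST-like, 12408 myeloid-like, 1437 T/NK-like and 1093 stromal-like cells. Another 3116 cells met no gate and 1323 met several, and the last were kept out of the classes. The summed level of 15 MPNST markers was 4828 to 6092 CPM (the usual unit of UMI counts scaled to the library total, here the total of the class) in MPNST-like cells and 35.5 to 126 CPM in myeloid-like cells, but 1219 to 2358 CPM in stromal-like cells. No label names a batch, so the 63 ways to split the tumors in 2 were compared on 5 measures (cells, UMIs and genes per cell, the share of mitochondrial UMIs and that of stress transcripts), and the split with the smallest spread within sets was used. It left 0.5856 of the spread, against 0.6277 for the next split, and its sets overlapped in mitochondrial share and stress transcripts. Set 1 held irradiated 1 and controls 2 and 3, and set 2 held irradiated 2, 3 and 4 and control 1. Between 3 and 19 cell barcodes were shared by any pair of libraries.

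The family was divided by cell class in every tumor. Il1a, Il1b, Il1rn and Il18 had their highest mean level in myeloid-like cells, Il33 and Il1r1 in stromal-like cells, Il1r2 in T/NK-like cells and Il1rl1 in MPNST-like cells. A level is the UMIs of the gene over all UMIs of the class in that tumor, in CPM. Levels were compared between classes for the same gene and not between genes. Within-tumor differences in log2(CPM + 1) were tested with a two-sided exact sign-flip permutation test over 7 tumors, whose smallest possible p is 0.0156, adjusted over all genes tested for the pair of classes. Of 24 differences between the highest class and another, 23 had the same direction in 7 of 7 tumors and passed, with adjusted p from 0.0191 to 0.0344. Many genes differ between such classes. The same test called 70.5% of all genes between myeloid-like and stromal-like cells, 53.2% between myeloid-like and T/NK-like, 85.8% between myeloid-like and MPNST-like, 50.5% between stromal-like and T/NK-like, 45.4% between stromal-like and MPNST-like and 69.7% between T/NK-like and MPNST-like cells. The exception was Il1r2, which did not differ between T/NK-like and myeloid-like cells beyond its spread.

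**Figure D1:**
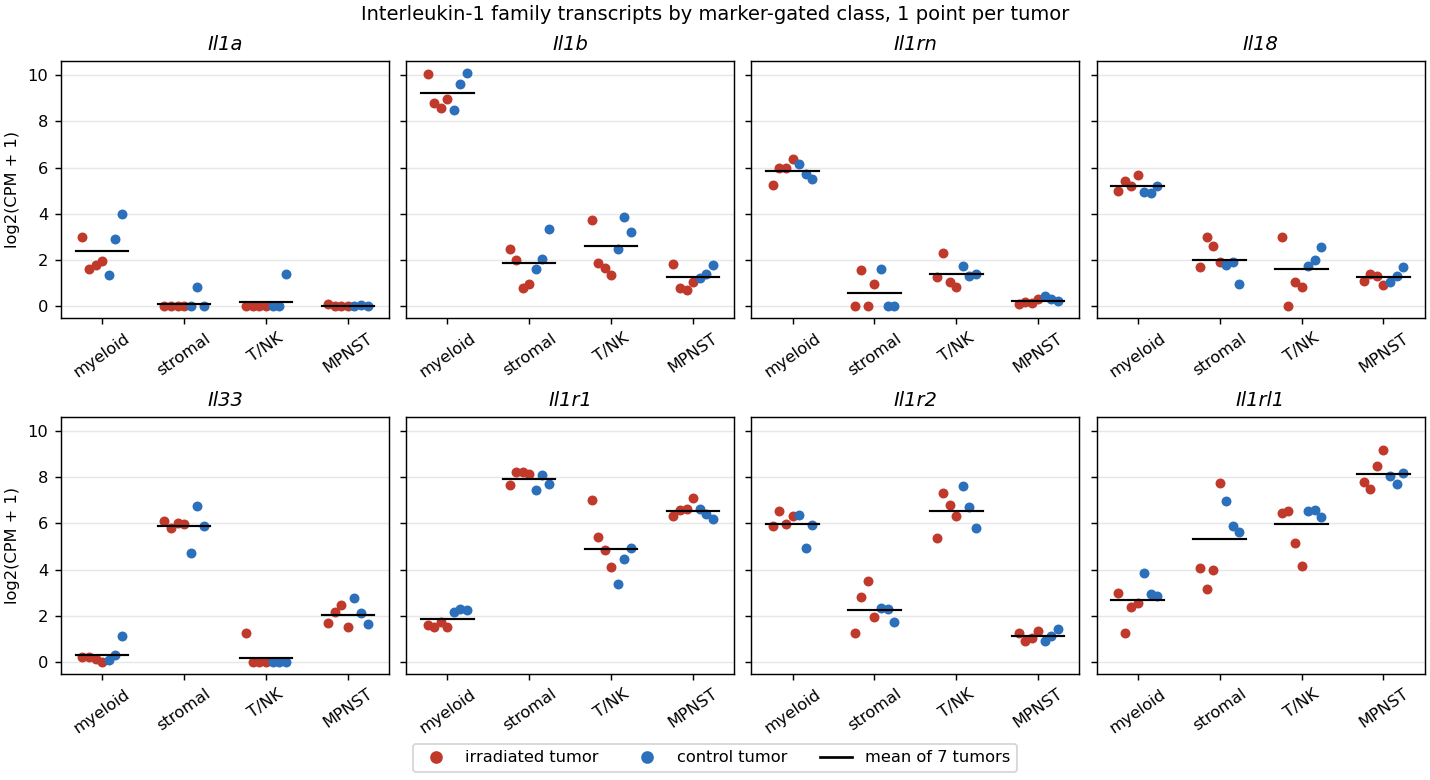
Level of each of the 8 genes, as log2(CPM + 1), in the 4 marker-gated classes. Each point is 1 tumor (red, irradiated, n = 4; blue, control, n = 3) and the line is the mean of 7 tumors. Il1b, Il1rn and Il18 sit highest in myeloid-like cells in all 7 tumors, Il33 and Il1r1 in stromal-like cells and Il1rl1 in MPNST-like cells.

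Il1b, the secreted agonist, was the ligand with the widest gap between classes. Its level in myeloid-like cells was 362, 775 and 1097 CPM in controls 1 to 3 and 1071, 437, 380 and 496 CPM in irradiated 1 to 4. Controls 2 and 3 and irradiated 1 were high and the other 4 tumors low, so the groups overlapped. The mean was 660 ± 321 CPM (SD, n = 7) in myeloid-like cells, against 6.47 ± 4.99 in T/NK-like and 3.38 ± 2.92 in stromal-like cells, with 0.615 to 2.55 CPM in MPNST-like cells. The difference from MPNST-like cells was 7.97 ± 0.35 (SD, n = 7 tumors) on the log2 scale (exact sign-flip adjusted p = 0.0191). Of the 12408 myeloid-like cells, 49.8% held an Il1b UMI (95% Wilson interval 48.9% to 50.6%) at a median of 6556 UMIs per cell. MPNST-like cells had 4.04% of cells with an Il1b UMI at a median of 22580 UMIs. Intervals on shares cover counting error only.

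The low Il1b counts outside myeloid-like cells lay near the median ratio of the macrophage and monocyte markers. In MPNST-like cells Il1b stood at 0.162% to 0.373% of its myeloid-like level, and the median of the 15 markers at 0.188% to 0.398%. Single markers there ran from 0.103% to 1.04%. In T/NK-like cells the ranges for Il1b and the median marker were 0.310% to 1.75% and 0.553% to 1.90%, but single markers ran from 0.0% to 2679%. The part of RNA from myeloid cells in these Il1b counts was not tested. Il18 lay above the median marker in MPNST-like cells, at 1.78% to 6.34% of its myeloid-like level. It also did so in stromal-like cells, at 2.59% to 16.6% against 0.320% to 0.739%, where single markers ran from 0.0% to 17.7%. In T/NK-like cells Il18 ran from 0.0% to 22.5%, with a median over tumors of 7.81% against 0.99% for the median marker. Il1rn there ran from 0.939% to 6.39%, from 1 to 3 UMIs per tumor.

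Within the myeloid-like cells, Il1b was broad. Mean levels were 549 ± 359 CPM in C1q/Mrc1 macrophage-like cells, 630 ± 236 in inflammatory macrophage-like cells (Chil3, Slfn4, Arg1), 1085 ± 488 in the other macrophage-like cells (n = 7 tumors each) and 1008 ± 444 in monocyte-like cells (n = 6). Dendritic-like cells ran from 480 CPM in irradiated 2 to 1525 CPM in control 3, from 21 to 58 cells per tumor. The 41 granulocyte-like cells of all tumors held 496 Il1b UMIs, a pooled 5062 CPM, with a UMI in 70.7% of cells (55.5% to 82.4%) at a median of 2231 UMIs per cell. The 75 type 2 dendritic-like cells had a pooled 2460 CPM of Il1b, and the 29 type 1 dendritic-like cells 103 CPM. These finer classes need several markers per cell, so cells of shallow libraries met them less readily, and they were not tested against each other.

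**Figure D2:**
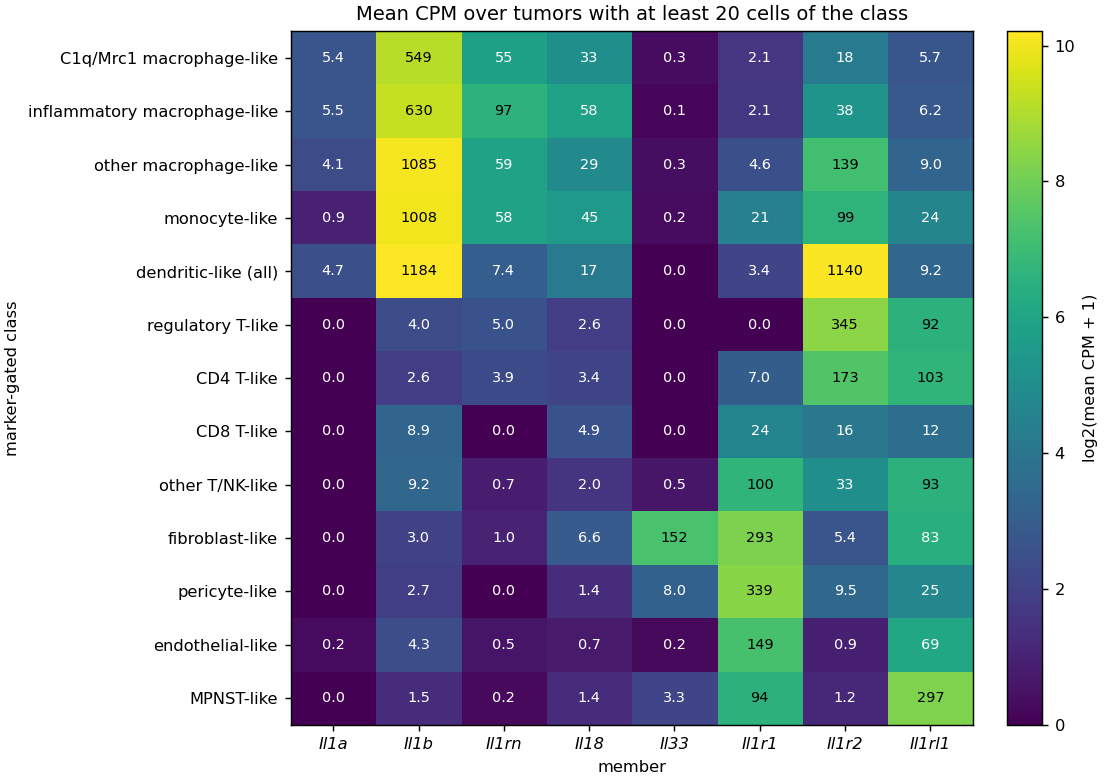
Mean CPM of each gene (columns, printed in the cells) in 13 marker-gated classes (rows), over tumors with at least 20 cells of the class, with color on a log2(mean CPM + 1) scale. The largest mean is that of Il33 in fibroblast-like cells (152), of Il1r1 in pericyte-like cells (339), of Il1r2 in dendritic-like cells (1140) and of Il1rl1 in MPNST-like cells (297).

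Il1a, which encodes the cell-associated agonist, was sparse. Its level in myeloid-like cells was 1.55, 6.57 and 14.7 CPM in controls 1 to 3 and 7.08, 2.03, 2.44 and 2.94 CPM in irradiated 1 to 4, from 26 to 228 UMIs per tumor. Control 3 was the highest and control 1 the lowest, so the control range enclosed the irradiated tumors. Outside myeloid-like cells only 2, 1 and 9 Il1a UMIs were counted in stromal-like, T/NK-like and MPNST-like cells of all tumors together.

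Il1rn, the receptor antagonist, was a second myeloid transcript, with a pattern across tumors unlike that of Il1b. Its level in myeloid-like cells was 71.3, 51.4 and 44.5 CPM in controls 1 to 3 and 36.6, 62.8, 62.9 and 81.9 CPM in irradiated 1 to 4. Irradiated 1 was the lowest and irradiated 4 the highest, and the groups overlapped. The mean was 58.8 ± 15.7 CPM (SD, n = 7), against 1.82, 0.705 and 0.192 CPM in T/NK-like, stromal-like and MPNST-like cells. Inflammatory macrophage-like cells had 96.9 ± 11.7 CPM (n = 7), C1q/Mrc1 macrophage-like cells 55.0 ± 15.2 (n = 7), and all dendritic-like cells together 7.71 CPM from 21 UMIs. The first exon of Il1rn sets whether the antagonist is secreted, and 3′ counts did not tell those forms apart.

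The balance of agonist and antagonist transcripts differed between the 2 sets of tumors described above. Myeloid-like cells held 29.2 Il1b UMIs per Il1rn UMI in irradiated 1, 15.1 in control 2 and 24.6 in control 3. The ratio was 6.95, 6.05 and 6.06 in irradiated 2, 3 and 4 and 5.08 in control 1. Every tumor of set 1 lay above every tumor of set 2, in both groups. The irradiated-minus-control difference in the log2 ratio was -0.41 (two-sided exact permutation p = 0.657, 35 assignments). Along with the ratio moved the share of inflammatory macrophage-like cells among myeloid-like cells, at 1.75% to 2.54% in set 1 and 17.2% to 37.5% in set 2, and the median depth of myeloid-like cells, at 3990 to 5858 and 9934 to 12013 UMIs. UMIs per cell were among the measures that defined the sets, so a gap in depth came with the split. The inflammatory macrophage gate needs several markers per cell, so its share depends on depth as well. The part of depth and of that share in the ratio was not tested.

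**Figure D3:**
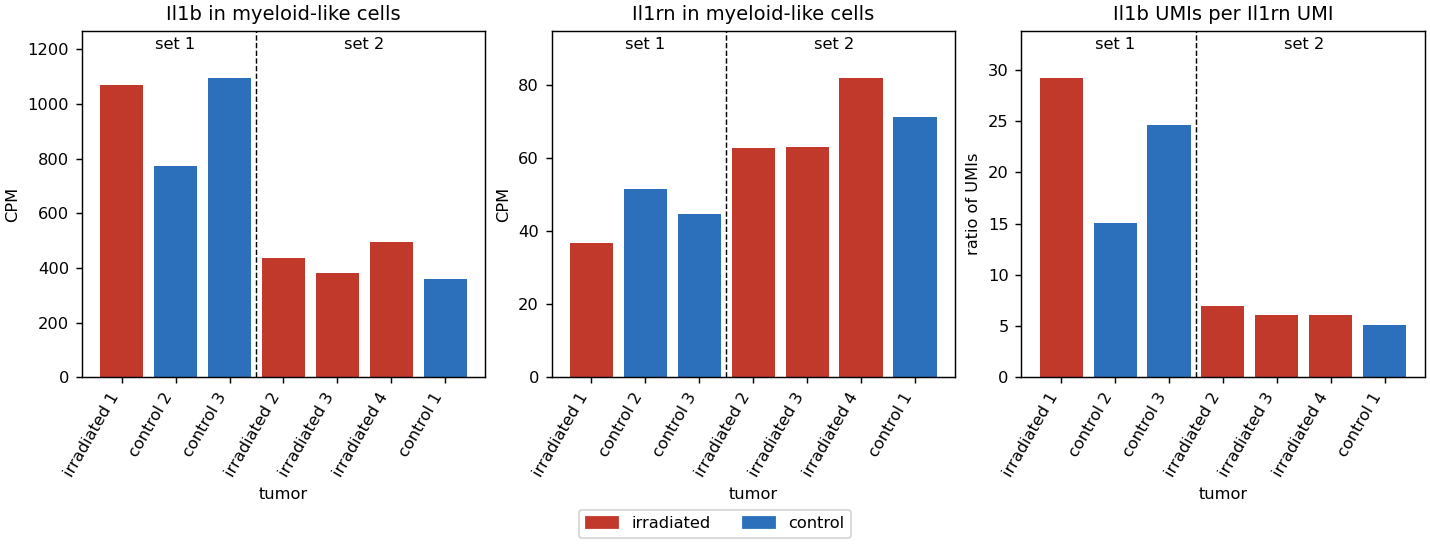
Il1b level (left, CPM), Il1rn level (middle, CPM) and Il1b UMIs per Il1rn UMI (right) in myeloid-like cells of each tumor, 1 bar per tumor and no error bars, ordered by set (dashed line). Set 1 runs from 15.1 to 29.2 and set 2 from 5.08 to 6.95 Il1b UMIs per Il1rn UMI, with irradiated and control tumors in both sets.

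Il18, which encodes a ligand that drives interferon-γ from T and NK cells, had the smallest spread relative to its mean of the 4 myeloid transcripts. Its level was 29.6, 28.4 and 35.8 CPM in controls 1 to 3 and 30.8, 41.7, 35.7 and 49.7 CPM in irradiated 1 to 4. Irradiated 2 and 4 lay above all controls, and the other 2 irradiated tumors lay within their range. The mean was 35.9 ± 7.60 CPM (SD, n = 7), and 21.8% of myeloid-like cells held a UMI, against 3.46% of MPNST-like cells at the greater depth given above. Inflammatory macrophage-like cells had 58.3 ± 13.0 CPM and C1q/Mrc1 macrophage-like cells 32.8 ± 3.17 (n = 7 each). The 3 lower classes did not differ beyond their spread, with 3.32 CPM in stromal-like, 2.72 in T/NK-like and 1.44 in MPNST-like cells (exact sign-flip adjusted p from 0.117 to 0.658).

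Il33, the alarmin, had its highest level of the 4 classes in stromal-like cells. Stromal-like cells had 25.1, 108 and 57.8 CPM in controls 1 to 3 and 68.5, 54.3, 63.5 and 61.2 CPM in irradiated 1 to 4. Controls 1 and 2 were the lowest and the highest, and the irradiated tumors lay between them. Within the stroma, fibroblast-like cells carried 152 ± 68.5 CPM (SD, n = 7; 81.9 to 282), pericyte-like cells 7.98 ± 9.50 (n = 6) and endothelial-like cells 0.206 ± 0.504 (n = 6). The fibroblast-like cells numbered 26 to 91 per tumor. Few cells gave most of the UMIs, since the top 5 cells held 36.8% to 67.2% of the stromal-like Il33 UMIs of a tumor.

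The more numerous and deeper MPNST-like cells held more Il33 UMIs in all, 1387 against 815 in stromal-like cells, at a lower level. MPNST-like cells had 3.34 ± 1.44 CPM (SD, n = 7), with a UMI in 3.88% of cells, and the difference from stromal-like cells was 3.84 ± 0.94 on the log2 scale (exact sign-flip adjusted p = 0.0344). A single Il33 UMI was counted in 1437 T/NK-like cells, and 27 in 12408 myeloid-like cells, of which 14 lay in 1 cell of control 3. Keratinocyte-like cells, 70 in 4 tumors, held 153 Il33 UMIs, a pooled 110 CPM, and ran from 0.0 to 221 CPM by tumor, with 146 of the UMIs in irradiated 4.

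Il1r1, the signaling receptor for both agonists, was found on the tumor and stromal side. Its level in stromal-like cells was 173, 272 and 205 CPM in controls 1 to 3 and 200, 295, 294 and 279 CPM in irradiated 1 to 4. Irradiated 2, 3 and 4 lay above all controls, and irradiated 1 lay within their range. Pericyte-like cells had 339 ± 90.3 CPM (n = 6), fibroblast-like cells 293 ± 118 (n = 7) and endothelial-like cells 149 ± 57.0 (n = 6). A UMI was seen in 61.0% of stromal-like cells at a median of 8456 UMIs, and in 1.81% of myeloid-like cells at a median of 6556. The level in MPNST-like cells was 94.5 ± 21.5 CPM (SD, n = 7), lower than in stromal-like cells in 7 of 7 tumors by 1.37 ± 0.33 on the log2 scale (exact sign-flip adjusted p = 0.0344). T/NK-like cells followed with 38.9 ± 40.3 CPM and myeloid-like cells with 2.74 ± 0.934 CPM, and each neighboring pair in this order passed the same test, with adjusted p of 0.0448 for MPNST-like against T/NK-like cells. That pair had the stated order in 6 of 7 tumors, and in irradiated 1 the T/NK-like level was 127 CPM and the MPNST-like level 77.9 CPM.

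The T/NK-like Il1r1 UMIs came from few cells. In irradiated 1, 92 UMIs lay in 16 of 255 cells, and in control 1, 8 UMIs lay in 4 of 138 cells. T/NK-like cells that met no CD4, CD8, regulatory or NK gate had 100 ± 81.3 CPM (n = 7), and regulatory T-like cells had no Il1r1 UMI in any of the 5 tumors with 20 such cells. What those other T/NK-like cells are was not resolved by the markers used.

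Il1r2, the decoy receptor that binds IL-1 without signaling, was found in 2 immune classes. Its level in T/NK-like cells was 192, 104 and 54.4 CPM in controls 1 to 3 and 40.1, 157, 109 and 78.4 CPM in irradiated 1 to 4. In myeloid-like cells it was 81.6, 29.8 and 59.2 CPM in controls and 58.1, 92.5, 61.0 and 77.5 CPM in irradiated tumors. The groups overlapped in both classes. The T/NK-like level was higher in 5 of 7 tumors, by a mean of 0.56 ± 0.81 on the log2 scale (exact sign-flip p = 0.109, adjusted p = 0.151). Both lay above stromal-like cells (4.38 ± 2.96 CPM) and MPNST-like cells (1.22 ± 0.313 CPM) in 7 of 7 tumors.

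Within those classes Il1r2 was concentrated in a few kinds of cell. Regulatory T-like cells had 345 ± 141 CPM (n = 5) and CD4 T-like cells 173 ± 114 (n = 6), against 16.1 ± 26.0 in CD8 T-like cells (n = 6). Dendritic-like cells ran from 836 CPM in irradiated 4 to 1638 CPM in control 1, and 61.8% of all 267 of them held a UMI (55.8% to 67.4%). C1q/Mrc1 macrophage-like cells, the largest myeloid group, had 17.6 ± 9.82 CPM (n = 7). The share was 89.3% (80.3% to 94.5%) in the 75 type 2 and 37.9% (22.7% to 56.0%) in the 29 type 1 dendritic-like cells. The 41 granulocyte-like cells held 320 Il1r2 UMIs, in 90.2% of cells (77.5% to 96.1%).

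Myeloid-like cells that carried the decoy receptor more often carried its ligand. After each cell was thinned to 2000 UMIs, an Il1b UMI was seen in 84.1% of cells with an Il1r2 UMI and 50.8% of cells without one in control 3, and in 69.7% and 25.8% in control 1. The share was higher with Il1r2 in 7 of 7 tumors, which compares cells of the same tumor and is given as a description. For Il1rn and Il1b the shares lay closer, at 69.2% against 51.3% in irradiated 1 and at 26.0% against 28.6% in control 1, the 1 tumor where the order turned. In MPNST-like cells, Il1rl1 was seen in 20.3% to 50.8% of cells with Il1r1 and in 16.6% to 48.9% of cells without it.

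Il1rl1, which encodes the IL-33 receptor ST2, was foremost a transcript of the tumor cells. Its level in MPNST-like cells was 263, 206 and 287 CPM in controls 1 to 3 and 218, 177, 356 and 572 CPM in irradiated 1 to 4. Irradiated 3 and 4 lay above all controls, irradiated 2 below them and irradiated 1 among them. The mean was 297 ± 135 CPM (SD, n = 7), against 70.5 ± 31.8 in T/NK-like, 68.2 ± 74.3 in stromal-like and 6.21 ± 3.68 in myeloid-like cells. MPNST-like cells were higher than each of the other 3 classes in 7 of 7 tumors, with the difference from T/NK-like cells at 2.16 ± 1.49 on the log2 scale (exact sign-flip adjusted p = 0.0254). T/NK-like and stromal-like cells did not differ beyond their spread (adjusted p = 0.494). A UMI was seen in 57.7% of MPNST-like cells, and in 4.55% of myeloid-like cells at a median of 6556 UMIs. The 3′ counts per gene did not tell the membrane form of ST2 from the soluble decoy form.

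Among T/NK-like cells Il1rl1 was at 103 ± 76.3 CPM in CD4 T-like cells (n = 6), 92.4 ± 43.7 in regulatory T-like cells (n = 5), 93.0 ± 57.1 in those that met no finer gate (n = 7; 45 to 168 cells per tumor) and 11.8 ± 10.3 in CD8 T-like cells (n = 6). The stromal-like level rested on few cells. In irradiated 4, 224 UMIs lay in 10 of 67 stromal-like cells, 99 of them in 1 cell, and the top 5 cells held 97.8%. In stromal-like cells the median of the 9 or 10 MPNST markers with enough counts stood at 27.7% to 54.9% of its MPNST-like level. Single markers ran from 2.40% to 569%, and Il1rl1 there stood at 4.10% to 46.6% of its own MPNST-like level. The part of tumor RNA in the stromal-like Il1rl1 level was not tested. Mast-like cells and type 2 innate lymphoid-like cells, known carriers of ST2, numbered 1 and 7 in all tumors, too few for a level.

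Tumor cells were not uniform in Il1rl1. The MPNST-like clusters were made without the IL-1 family genes, and the values by cluster are a description. In cluster 20, led by Npnt, Rerg, Ibsp and Alpl, Il1rl1 ran from 11.5 to 40.6 CPM over 3 tumors. In cluster 10, led by the cartilage genes Col2a1 and Cnmd, it ran from 20.1 to 72.3 CPM over 6 tumors. In cluster 11, led by Mdk and Grm7, it ran from 421 to 1257 CPM over 5 tumors, so the lowest tumor of cluster 11 lay above the highest tumor of clusters 10 and 20. The same held for most clusters. The lowest tumor was at 314, 306 and 386 CPM in clusters 6, 12 and 18, and at 119 and 118 CPM in clusters 7 and 25. Cluster 23 had 492 CPM in 1 tumor, and cluster 9 overlapped cluster 10, from 39.1 to 180 CPM. Il1r1 spread less over clusters 10, 11 and 20, from 69.4 to 72.9 CPM in cluster 20, 64.2 to 72.4 in cluster 10 and 75.5 to 185 in cluster 11. Cluster 8 met 7 of the 15 MPNST markers but was led by immunoglobulin and hemoglobin genes, at a median of 1987 UMIs per cell, and was left unnamed and out of this account.

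**Figure D4:**
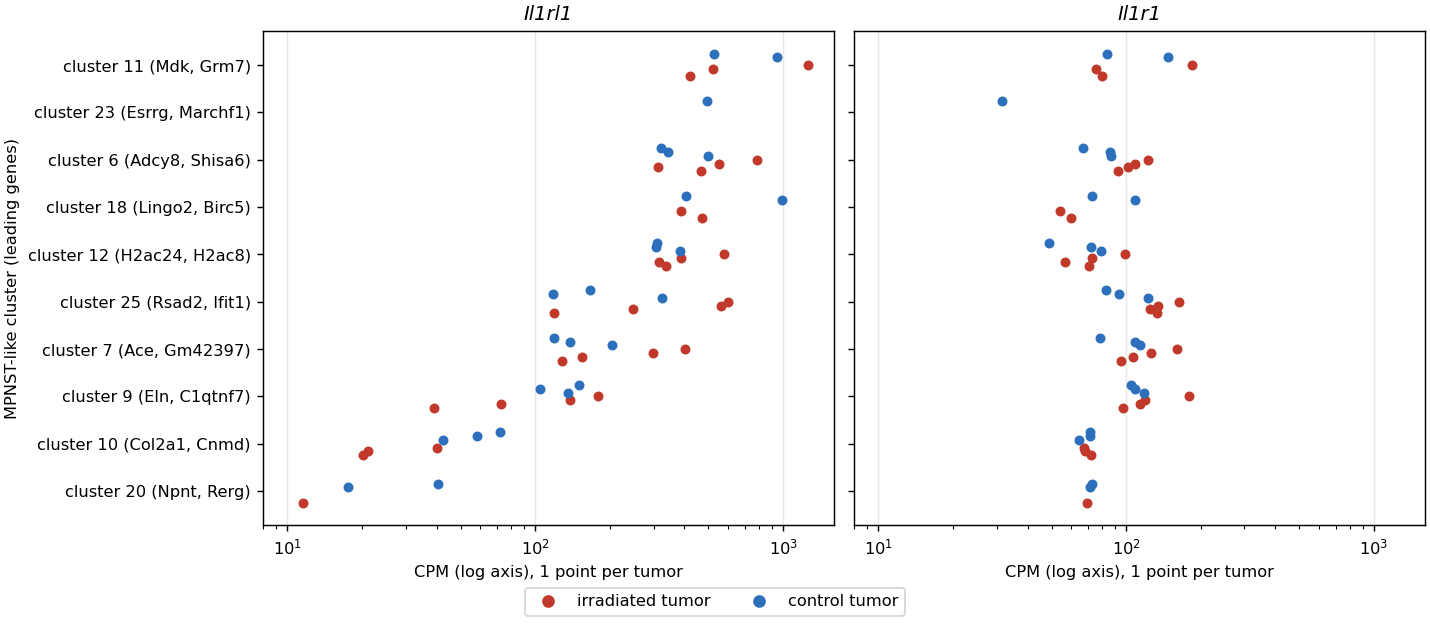
Il1rl1 (left) and Il1r1 (right) in 10 MPNST-like clusters, each tumor with at least 20 cells of the cluster, on a log CPM axis with 1 point per tumor (red, irradiated; blue, control). Il1rl1 runs from 11.5 CPM in cluster 20 to 1257 CPM in cluster 11, and Il1r1 lies in a narrower band, from 31.5 to 185 CPM.

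Irradiated and control tumors were then compared in each class, the question the design poses. UMIs were summed per tumor and class and tested across all genes by quasi-likelihood in edgeR, and p-values were adjusted by the Benjamini-Hochberg method. The low-count filter passed 7 of the 8 genes in myeloid-like cells, 3 in stromal-like, 3 in T/NK-like and 7 in MPNST-like cells, 20 pairs of gene and class in all. None of the 20 was called at an adjusted p under 0.05, and edgeR called 0.0% of 13056 genes in myeloid-like, 0.0% of 11789 in stromal-like, 0.0% of 7595 in T/NK-like and 0.0% of 17295 in MPNST-like cells. At an unadjusted p under 0.05 there were 804, 752, 453 and 219 genes in these classes, or 6.16%, 6.38%, 5.96% and 1.27% of those tested. Of the 7 family genes tested in myeloid-like cells 1 was among them (Il1r1), and of the 7 tested in MPNST-like cells 1 (Il1rn). DESeq2 called 7, 26, 14 and 0 genes, and none of the 8 was among those it called. The smallest adjusted p of the 20 pairs was 0.784.

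**Figure D5:**
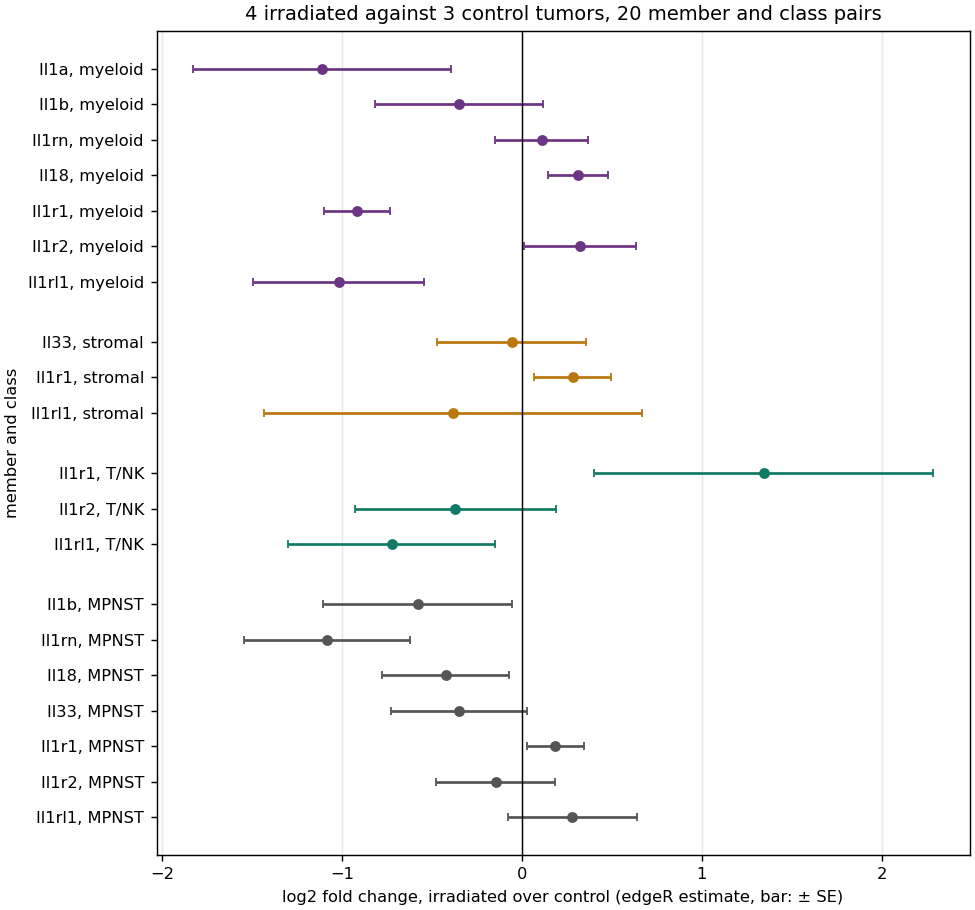
Log2 fold change, irradiated over control, for the 20 gene and class pairs that passed the low-count filter (edgeR estimate, 4 against 3 tumors, bars ± SE), colored by class. The Il1r1 bar in myeloid-like cells, at -0.92 ± 0.18, lies farthest from 0 in units of its SE, and no pair passed the adjusted threshold.

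Among the ligands, Il1b in myeloid-like cells differed by -0.35 ± 0.47 (log2 fold change ± SE, adjusted p = 0.875 by edgeR) and Il1a by -1.11 ± 0.72 (adjusted p = 0.793). Within the sets, the differences in log2(CPM + 1) for Il1b were 0.22 in set 1 and 0.27 in set 2, the opposite direction to the pooled value. For Il1a they were -0.43 and 0.44. The Il18 difference was 0.31 ± 0.17 (adjusted p = 0.786), and set 1 gave -0.05 and set 2 gave 0.49. Il1rn differed by 0.11 ± 0.26 (adjusted p = 0.935), while sets 1 and 2 gave -0.38 and -0.05. The Il33 difference in stromal-like cells was -0.06 ± 0.42 (adjusted p = 0.990 by edgeR), with -0.20 in set 1 and 1.21 in set 2, where the single control was control 1.

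Among the receptors, the largest difference in units of its error was that of Il1r1 in myeloid-like cells. Its level there was 3.48, 3.86 and 3.82 CPM in controls 1 to 3 and 2.03, 1.87, 2.28 and 1.85 CPM in irradiated 1 to 4. All 4 irradiated tumors lay below all 3 controls, the only one of the 20 pairs whose groups did not overlap. Of all genes tested in myeloid-like cells, 2.63% lay lower in irradiated tumors with no overlap. By edgeR the log2 fold change was -0.92 ± 0.18 (SE), with an adjusted p of 0.784 (unadjusted 0.000886). The differences within sets were -0.67 and -0.58. These levels rest on 24 to 63 UMIs per tumor.

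The summed level of tumor-cell markers overlapped between the groups in myeloid-like cells. The 15 MPNST markers summed to 35.5 to 90.2 CPM in myeloid-like cells of irradiated tumors and to 71.3 to 126 CPM in those of controls, and 1 of the 15 was at 0. Il1r1 in myeloid-like cells was 1.35% to 5.34% of its MPNST-like level. The median of the 9 or 10 markers with enough counts was 0.556% to 1.77% of its own. That median was 1.77%, 0.839%, 0.611% and 0.556% in irradiated 1 to 4 and 1.24% to 1.67% in controls. Irradiated 2, 3 and 4 lay below all controls in it, and irradiated 1 above them. The part of tumor RNA in the Il1r1 result was not tested. The share of myeloid-like cells with an Il1r1 UMI, thinned to 2000 UMIs, was 0.367% ± 0.0339 (SD, n = 4) in irradiated and 0.729% ± 0.174 (n = 3) in control tumors (two-sided exact permutation p = 0.0286, unadjusted, the smallest p that 35 assignments allow). Of 20 such share comparisons it was the only one under 0.05, and the call was lost at other depths. Thinned to 3000 UMIs the difference had an exact permutation p of 0.0857, and unthinned the shares were 1.67% and 2.30% (exact p = 0.543). Unthinned, the stromal-like share with Il33 was the only one at 0.0286. The irradiated-minus-control difference for Il1r1 differed between myeloid-like and MPNST-like cells by -0.90 on the log2(CPM + 1) scale (exact permutation p = 0.0286, adjusted p = 0.994 over 12347 genes), and the smallest adjusted p of 19 comparisons of this kind was 0.801.

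In MPNST-like cells Il1r1 differed by 0.19 ± 0.16 and Il1rl1 by 0.28 ± 0.36 (log2 fold change ± SE, both adjusted p = 1.00 by edgeR). Within the sets Il1rl1 differed by -0.16 and 0.33. In stromal-like cells Il1r1 differed by 0.28 ± 0.21 (adjusted p = 0.806; -0.24 in set 1, 0.74 in set 2), and Il1rl1 by -0.38 ± 1.05. For stromal-like Il1rl1 the sets gave -1.69 and -2.0, and the fold change was -2.52 without irradiated 4 and 0.12 without control 1. In T/NK-like cells Il1r1 differed by 1.34 ± 0.94, Il1r2 by -0.37 ± 0.56 and Il1rl1 by -0.72 ± 0.58, with adjusted p from 0.912 to 0.967 by edgeR. The 15 MPNST markers in T/NK-like cells summed to 21.5 to 80.2 CPM in irradiated and 167 to 277 CPM in control tumors, with 2 markers at 0, and their part in these values was not tested. In myeloid-like cells Il1r2 differed by 0.33 ± 0.31 (adjusted p = 0.837) and Il1rl1 by -1.02 ± 0.47 (adjusted p = 0.784), beside the MPNST marker sums given above. Within sets 1 and 2 Il1rl1 differed by 0.12 and -1.79 in myeloid-like cells, where control 1 was the single control of set 2 at 13.4 CPM, and by 0.04 and -1.26 in T/NK-like cells. Il1r1 in T/NK-like cells differed by 2.30 and 1.43 within the sets, and Il1r2 by -0.89 and -0.79 there and by 0.46 and -0.10 in myeloid-like cells. Il1rn in MPNST-like cells had an unadjusted p of 0.0447 and an adjusted p of 1.00 by edgeR, from 4 to 30 UMIs per tumor.

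The share of cells with a UMI was compared in the class where each gene was highest. Thinned to 2000 UMIs, Il1b was seen in 34.7% ± 12.2 of irradiated and 40.6% ± 12.1 of control myeloid-like cells (exact permutation p = 0.571). Il1rl1 was seen in 32.1% ± 13.8 and 25.6% ± 7.33 of MPNST-like cells (exact p = 0.571), Il1r1 in 30.8% ± 3.96 and 32.7% ± 3.30 of stromal-like cells (exact p = 0.543) and Il33 in 10.0% ± 3.91 and 7.73% ± 4.75 of stromal-like cells (exact p = 0.514). Each is a mean ± SD over 4 irradiated and 3 control tumors. None of these 4 differences had a p under 0.05.

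The rest of the pathway showed where partners of the members were read. Il1rap, the shared accessory chain of the IL-1 and IL-33 receptors, was highest in MPNST-like cells at 79.8 ± 8.58 CPM (SD, n = 7), and was at 27.4 to 41.6 CPM in the other 3 classes. Il18r1, the IL-18 receptor, was at 381 ± 50.5 CPM in T/NK-like cells and below 1 CPM in the others. Nlrp3, the inflammasome sensor, was at 85.5 ± 14.3 CPM in myeloid-like cells and 0.256 to 0.772 CPM elsewhere. Il36a, Il36b, Il36rn and Il1f10 had no UMI in these classes.

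The 6 lists of pathway genes were compared between irradiated and control tumors, and edgeR called none of their genes in either direction in any class. Of 13 other ligands and receptors of the family, 4 passed the filter in T/NK-like cells, where the list had its highest sum. Of these 4, 1 had a fold change above 0, with a median of -0.05 against 0.001 over all genes. Il1rap differed by 0.36 ± 0.27 there and Il18r1 by -0.09 ± 0.16. Of 15 inflammasome genes in myeloid-like cells, 15 passed and 10 lay above 0, with a median of 0.18 against -0.004 over all genes. Their summed level was 1330 to 1524 CPM in irradiated and 1164 to 1267 CPM in control tumors, and the sum was not tested. Casp1, which cuts the IL-1β and IL-18 precursors, differed by 0.39 ± 0.17 (adjusted p = 0.784), Txnip, which binds Nlrp3, by 0.34 ± 0.11 (adjusted p = 0.784) and Mefv, which encodes pyrin, by 0.46 ± 0.31 (adjusted p = 0.797).

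Of 16 receptor-proximal signaling genes, 11 passed in T/NK-like cells and 8 lay above 0, with a median of 0.08 against 0.001 over all genes. Irak4 was at 0.59 ± 0.35, Traf6 at 0.33 ± 0.22 and Nfkb1 at -0.46 ± 0.19 (adjusted p from 0.767 to 0.880 by edgeR). Of 22 genes known to be induced by IL-1, 16 passed in myeloid-like cells and 12 lay above 0, with a median of 0.10 against -0.004 over all genes. Cxcl3, a neutrophil chemokine, differed by 3.34 ± 0.92 (3.81 ± 3.91 CPM, n = 4, against 0.351 ± 0.135, n = 3), and its adjusted p was 0.784. Its control level lay near the floor, since 3 UMIs stood for 0.166 to 0.232 CPM in myeloid-like cells of controls. Mmp9 differed by -1.70 ± 1.01 and Lcn2 by -0.89 ± 1.60. Of 6 type 2 and interferon-γ genes, 4 passed in T/NK-like cells and 0 lay above 0, with a median of -0.21 against 0.001 over all genes. Il4 was at -0.93 ± 0.60, Gata3 at -0.37 ± 0.24 and Areg at -0.06 ± 0.38. Of 13 dissociation stress genes in myeloid-like cells, 13 passed and 3 lay above 0, with Fosb at -0.42 ± 0.17, Egr1 at -0.34 ± 0.24 and Ier2 at -0.20 ± 0.13. The median of the 13 was -0.06 against -0.004 over all genes. Their summed level was 9549 to 12048 CPM in irradiated and 10542 to 12883 CPM in control tumors. Except for the inflammasome list, the list sums overlapped between the groups in the class where each was highest.

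Genes with a like pattern were sought over 89 profiles of cell class and tumor with at least 20 cells, by Pearson correlation of log2(CPM + 1) among 11421 genes, or 11422 for Il1a. Profiles of 1 tumor share a library, and those of 1 class share their markers, so the values are a description. The 3 genes most like Il1b were Fgd2 (r = 0.944), Nlrp3 (r = 0.941) and Gm46224 (r = 0.940). Those for Il1rn were Cd300ld (r = 0.920), Fcgr1 (r = 0.919) and Gm21188 (r = 0.910), and those for Il18 were Mpeg1 (r = 0.850), Sirpb1b (r = 0.848) and Cd180 (r = 0.842). For Il33 they were Aff2 (r = 0.883), Clip4 (r = 0.878) and Slc4a4 (r = 0.877), and for Il1r1 Mtcl1 (r = 0.872), Runx1t1 (r = 0.858) and Nedd4 (r = 0.850). Il1r2 had Cd80 (r = 0.834), Pcyt1a (r = 0.815) and Arih2 (r = 0.812). Il1rl1 had Mgst2 (r = 0.749), Itgb8 (r = 0.737) and Ccdc148 (r = 0.712), and Il1a had Siglece (r = 0.718), Gm5086 (r = 0.714) and Nxpe5 (r = 0.712). Il1a and Il1rl1 had the lowest values, so no gene of the table followed either closely. Among the members, Il1rn and Il18 had r = 0.796, Il1b and Il18 0.792, and Il1b and Il1rn 0.791, the 3 highest of their pairs.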

How the data were processed

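Each of 7 libraries was deposited as a matrix of UMI counts per gene and cell. Per the file headers the counts came from Cell Ranger 8.0.0, the study's methods name an earlier release, and the labels name mm10 and Seurat 4.4. The annotation release is not given in the sources used here. Cells beyond 3 median absolute deviations in depth, genes, mitochondrial or ribosomal share were left out. Classes came from the number of marker genes with a UMI in a cell, so they depend on depth. Gate cutoffs, the rule that 5 MPNST markers make an immune cell mixed, and the relaxed mature dendritic gate were set after the data were seen. Scrublet called 0.0304% of retained cells in irradiated 1 and 0.1265% in irradiated 3, so it had not worked there, and no cells were removed by it (removing its calls, or the 5% of cells with the highest scores, were alternatives).

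UMIs were summed per tumor and class and tested with edgeR 4.0.16 (quasi-likelihood, TMM, its low-count filter) in R 4.3.3, with DESeq2 1.42.0 as an alternative. Shares and differences between classes used exact tests in scipy 1.17.1, and cells were clustered with scanpy 1.11.5 (3000 variable genes, 30 components, resolution 1). Levels were set on log2(CPM + 1), which understates changes of low genes, for genes with a mean of at least 1 CPM. Shares were compared after thinning each cell to 2000 UMIs. The plan was to adjust level and share tests over the members alone. After those values had been seen, level and effect tests were adjusted over all genes instead, and shares were given with unadjusted p. The scripts were tested on simulated data. Named genes are the 8 members, the 3 measured genes with the largest absolute fold change of each pathway list in the class with its highest sum, and the 3 genes most like each member. Partners named by level alone (Nlrp3 and the genes at 0) and the clusters singled out were chosen after their values were seen. The members and lists were chosen with earlier results of these data known. P-values measure the spread between tumors grown from 1 line.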

Additional observations from a re-analysis of the deposited data

Results flagged for a closer look

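In groups of 4 irradiated tumors, 3 of 20 gene and class pairs had a tumor far from the others by Dixon's criterion, which chance meets in about 1 in 20 groups. Il1b in myeloid-like cells was 1071 CPM in irradiated 1, above the other 3 irradiated tumors. Il1r1 in stromal-like cells was 199.5 CPM in irradiated 1, below the other 3. Il1rl1 in stromal-like cells was 211 CPM in irradiated 4, above the other 3. The irradiated-minus-control difference of Il1r1 in myeloid-like cells differed from that in MPNST-like cells by -0.90 on the log2(CPM + 1) scale (two-sided exact permutation p = 0.0286 over 35 assignments, adjusted p = 0.994), with -0.65 in myeloid-like and 0.24 in MPNST-like cells.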

How the results depend on the processing

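Levels between classes kept their direction in all alternatives run. Leaving out 1 tumor brought the differences past the threshold from 23 to 13 each time, where the smallest p that 6 tumors allow is 0.0312. With every gene that had at least 1 UMI, edgeR called 1 gene in myeloid-like, 4 in stromal-like and 135 in T/NK-like cells, and DESeq2 called 7, 26 and 14. Leaving out 1 tumor gave 0 to 21 genes in T/NK-like cells, with 21 without irradiated 1 and 19 without control 1. No alternative called a member between irradiated and control tumors.

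Of 20 log2 fold changes 9 turned direction under at least 1 alternative. With the set of tumors as a term, the values were 0.23 for Il1b and -0.21 for Il1rn in myeloid-like, 0.46 for Il33 in stromal-like and 0.14 for Il1r2 in MPNST-like cells. Leiden clusters gave 0.041 for Il33 in stromal-like cells. Leaving out 1 tumor gave ranges of -0.81 to 0.048 for Il1b and -0.069 to 0.31 for Il1rn in myeloid-like cells, -0.45 to 0.57 for Il33 and -2.52 to 0.12 for Il1rl1 in stromal-like cells, -0.70 to 0.20 for Il1r2 in T/NK-like cells, and -0.37 to 0.24 for Il1r2, -0.66 to 0.0012 for Il18, -0.60 to 0.033 for Il33 and -0.054 to 0.51 for Il1rl1 in MPNST-like cells. The turns came without control 3 (Il1b, Il1rn, and MPNST-like Il1r2 and Il18), irradiated 4 (Il1rn, MPNST-like Il1rl1), control 2 (stromal-like Il33) and control 1 (stromal-like Il1rl1, Il1r2 in T/NK-like and Il33 in MPNST-like cells). The causes were not tested.

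The replicate numbers did not pair the tumors, since deviations of same-numbered tumors correlated from -0.634 to 0.231. The fit with the replicate block called 0 genes in each class and gave -0.078 for Il1rn in myeloid-like, 0.19 for Il33 in stromal-like and -0.091 for Il1rl1 in MPNST-like cells.

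Of 20 share comparisons, 1 had an unadjusted p under 0.05, with 2 under Leiden clusters, 0 after thinning to 3000 UMIs and 0 without any 1 tumor, where p cannot go below 0.1 or 0.0667. The difference in the myeloid-like share with Il1r1 was -0.348 percentage points at 3000 UMIs (exact permutation p = 0.0857), -0.623 without thinning (exact p = 0.543) and -0.428 to -0.264 without 1 tumor. The stromal-like share with Il1r1 turned to 0.433 under Leiden clusters and 7.43 without thinning, and the T/NK-like share with Il1r2 to 2.41 at 3000 UMIs and 3.78 without thinning. The stromal-like share with Il33 differed by 9.66 without thinning (exact p = 0.0286). Without 1 tumor the myeloid-like shares ranged from -0.673 to 2.05 for Il1rn and -0.644 to 0.155 for Il1a. Depth limits the shares, since thinning turned or moved several of them, and myeloid-like Il1r1 rests on 24 to 63 UMIs per tumor. The Leiden alternative counted cluster 8 as MPNST-like.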

Other observations

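Outside the 4 classes, cells that met no gate had 46.1 ± 30.6 CPM of Il1b, 105 ± 30.4 CPM of Il1r1 and 316 ± 150 CPM of Il1rl1 (SD, n = 7 tumors). Cells that met several gates had 101 ± 65.6 CPM of Il1b and 257 ± 103 CPM of Il1rl1 (n = 7). Keratinocyte-like cells had 64.9 ± 105 CPM of Il33 and 29.3 ± 15.9 CPM of Il1r1 (n = 4 tumors), with no UMI of Il1a, Il1rn or Il1r2.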
